A study of Mus musculus with 34 samples.

Results

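The 10 transcripts described here, Crip3, Dnase1, Opn1mw, Cpne2, Panx1, Cuzd1, Otub2, Tppp3, Hdac11 and Wnk2, were taken from those raised in medial gastrocnemius of GSL30 mice. They are 10 of the 12394 genes with a probe set of their own on the array, and every probe set annotated to their symbols was used, which gave 13 of 22690. Otub2, Hdac11 and Wnk2 had 2 probe sets each, and the other members had 1. The members were chosen by their intensity in GSL30 against WT arrays at 8 months, so that difference is given as a description with no test. The same probe sets were then read in muscle and liver of knockout mice, in arrays that the choice did not use.

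GSL30 mice gave 5 arrays of medial gastrocnemius at 8 months, and WT mice of that age gave 5. Mice lacking muscle glycogen synthase (KO) at 3 months gave 3 arrays of medial gastrocnemius, 4 of anterior tibialis and 4 of liver, and WT mice at 3 months gave 5, 4 and 4. The strain is C57BL6/129SV where the labels state it, for the tibialis arrays. The labels describe the 8-month mice as WT or overexpressing muscle glycogen synthase, so GSL30 stands for 1 overexpressing line, and an effect of the transgene cannot be told apart from an effect of where it lies in the genome. The promoter of the transgene and the sex of the mice are not given in the sources used here. GSL30 and KO arrays also differ in age and array set, and no difference between them was tested.

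Levels are intensities on the deposited scale, on which the trimmed mean of every array is close to 1000 and the medians run over 296.35 to 440.3. Probe sets bind with different strength, so levels are compared between arrays and not between probe sets. Gys1, the muscle glycogen synthase gene, read 7895.5 to 10404 in GSL30 arrays and 5840.0 to 7185 in WT arrays at 8 months by its brighter probe set. That probe set read 34.2 to 72.5 in KO tibialis, against 8184 to 9958 in WT tibialis, and 58.1 to 165 in KO gastrocnemius, against 3955 to 6378 in WT gastrocnemius at 3 months. Hepatocyte transcripts went against the tissue label in gastrocnemius at 3 months. The mean of 12 hepatocyte genes on the log2(value + 50) scale was 11.38 to 15.48 in those 8 arrays, 7.32 to 7.85 in tibialis and 15.40 to 15.78 in liver. The array at 15.48, WT gastrocnemius array 2 at 3 months, also stood apart in fast fibre genes. Their mean on that scale was 16.80 there, against 15.02 to 15.43 in the other WT gastrocnemius arrays of that age. Exocrine pancreas transcripts were present in WT tibialis arrays 2 and 3, where Cpa1, a digestive enzyme, read 981.9 and 2054.8, against 14.9 and 12.9 in WT arrays 1 and 4 and 8.1 to 20.2 in KO tibialis. At 8 months the hepatocyte mean was 7.71 to 8.67 in GSL30 arrays and 8.79 to 10.69 in WT arrays. GSL30 array 2 also stood apart and read 7619 for Sln, a regulator of the muscle calcium pump, against 159.7 to 1127 in the other GSL30 arrays, and 2204 for the macrophage gene Cd68, against 477.5 to 791.

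Muscle builds glycogen with the muscle form of glycogen synthase, and mice that overexpress the enzyme in muscle are known to store excess glycogen there, while mice without it store none in muscle. The 10 genes share no single pathway. Otub2 encodes a deubiquitinase and Hdac11 a histone deacetylase, Wnk2 encodes a kinase of the with-no-lysine family that acts on ion cotransport, and Panx1 encodes a membrane channel that releases ATP. Cpne2 belongs to the copines, which bind phospholipids when calcium is present, Crip3 is a small LIM-domain protein, and Tppp3 belongs to a family that promotes tubulin polymerization. Dnase1 is a secreted nuclease abundant in kidney and gut, Cuzd1 is a CUB and zona pellucida domain protein known from the zymogen granules of pancreas, and Opn1mw is the middle-wavelength opsin of retinal cones.

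The promoter stretches below are shown for Otub2, the member that also rose in knockout muscle, and for Opn1mw and Cuzd1, which are known chiefly from retina and pancreas. Each is the 250 bases before an annotated start, from RefSeq on GRCm38.p6, read 5′ to 3′ on the strand of the gene, with E-box letters (CANNTG) in capitals. The stretches lie at chr12:103376644-103376893 on the plus strand for Otub2, chrX:74127216-74127465 on the plus strand for Opn1mw and chr7:131322293-131322542 on the minus strand for Cuzd1, and all lie outside the annotated gene. Otub2 has 3 windows in the table, and the other 2 lie inside the annotated gene and are not shown.
Otub2: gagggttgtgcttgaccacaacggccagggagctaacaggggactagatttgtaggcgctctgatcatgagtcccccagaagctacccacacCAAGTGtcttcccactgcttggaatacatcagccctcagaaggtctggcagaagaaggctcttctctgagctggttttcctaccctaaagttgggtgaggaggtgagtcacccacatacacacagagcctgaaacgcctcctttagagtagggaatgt
Opn1mw: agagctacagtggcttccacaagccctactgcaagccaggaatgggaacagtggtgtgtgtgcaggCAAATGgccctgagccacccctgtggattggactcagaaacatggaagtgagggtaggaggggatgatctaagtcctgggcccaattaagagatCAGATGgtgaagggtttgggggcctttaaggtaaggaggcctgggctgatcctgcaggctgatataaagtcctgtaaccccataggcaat
Cuzd1: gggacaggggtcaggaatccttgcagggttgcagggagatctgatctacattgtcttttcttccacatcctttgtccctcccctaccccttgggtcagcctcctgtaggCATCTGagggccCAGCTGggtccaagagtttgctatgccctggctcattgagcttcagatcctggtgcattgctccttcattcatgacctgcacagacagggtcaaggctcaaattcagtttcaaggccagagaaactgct

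Windows were found for 8 of the 10 genes, 11 windows in all, and Crip3 and Tppp3 had none in the table. All letters named here were searched on both strands, and some windows of 1 gene overlap. The E-box letters CANNTG were in 9 of the 11 windows, from 6 of the 8 genes, and in 66.2% of all 32851 windows of this length. CAGCTG, itself a form of CANNTG, was in 2 of the 11 windows, of Cuzd1 and Hdac11, and in 13% of all windows. The muscle MCAT letters CATTCC were in 3 of the 11 windows, of Hdac11, Opn1mw and Otub2, and in 12.6% of all windows. In Otub2 they lie on the other strand, read as GGAATG in the stretch above, which begins 7 bases before the start. TATAAA was in 3 of the 11 windows, of Dnase1 and Opn1mw, and in 12.4% of all windows, and in Opn1mw it began 28 bases before the start. CCAAT was in 8 of the 11 windows, from 6 genes, and in 33.8% of all windows. GGGCGG was in 2 of the 11 windows, of Cpne2 and Hdac11, and in 32.7% of all windows. A match describes letters in a window and does not show a bound site. CACGTG, also a form of CANNTG, was in 2 of the 11 windows, both of Dnase1, and in 6.02% of all windows. The MEF2 motif was in 0 of the 11 windows and in 2.92% of all windows. In that annotation 8 of the 10 genes lie alone on their chromosome, and Cpne2 and Tppp3 share chromosome 8.

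In GSL30 gastrocnemius 11 of the 13 member probe sets read higher in every GSL30 array than in any WT array at 8 months, among 3.79% of all tested probe sets that did so. The same 11 were among the 287 probe sets called higher by limma at an adjusted p under 0.05, which were 2.11% of 13576 tested, and both shares only restate how the members were chosen. The members are not the 10 largest differences: 56 other genes were called higher at or above the lowest called member probe set. Crip3, Dnase1 and Opn1mw ranked 1, 2 and 3 among the 287 by log2 difference, while the brighter Wnk2 probe set ranked 73. Among the 56, Actc1, the cardiac actin of immature muscle, ranked 4 at 1.85. The lowest called member probe set was that of Wnk2 at 0.82, and the genes next below it were Stimate at 0.82, Gamt at 0.81 and Serf1 at 0.81.

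**Figure D1:**
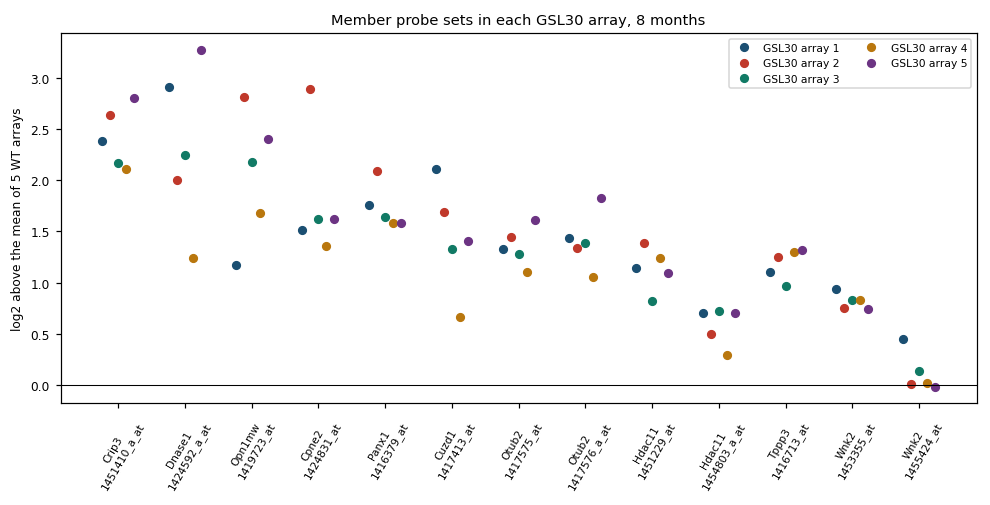
Log2(value + 50) of each member probe set in each of the 5 GSL30 arrays minus the mean of the 5 WT arrays at 8 months, 1 coloured point per array, with the line at 0 marking the WT mean. All GSL30 points of 12 probe sets lie above 0, array 4 is lowest for several probe sets, and array 2 stands far above the others for Cpne2.

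A rise was called in knockout muscle for 1 member gene, Otub2 in tibialis, and in knockout liver for 0. In KO tibialis 9 member probe sets passed the filter on dim probe sets and 1 was called higher by limma, Otub2 1417575_at, where 0.663% of all probe sets were called higher and 1.40% were called in either direction. At an unadjusted p under 0.05 there were 6 of the 9, and 15.0% of all probe sets. The 6 were both of Otub2, both of Wnk2, Cpne2 and Cuzd1. The 9 stand for 6 genes, so probe sets of 1 gene count separately here and in the medians below. Of the 13 probe sets, 4 read higher in every KO tibialis array than in any WT tibialis array, both of Otub2 and both of Wnk2, against 5.20% of all tested probe sets. In KO gastrocnemius 8 passed and 0 were called by limma, with 1 at an unadjusted p under 0.05 (11.4% of all probe sets), and 0.147% of all probe sets were called. There 2 read higher in every KO array than in any WT array, Cpne2 and the dimmer Wnk2 probe set, against 7.26% of all. In KO liver 5 passed and 0 were called by limma, with 1 at an unadjusted p under 0.05 (8.33% of all probe sets), and 0.00737% of all probe sets were called. The median difference of the member probe sets that passed was 0.45 in KO tibialis, 0.04 in KO gastrocnemius and 0.10 in KO liver on the log2 scale, against 0.04, 0.05 and 0.02 over all probe sets tested.

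**Figure D2:**
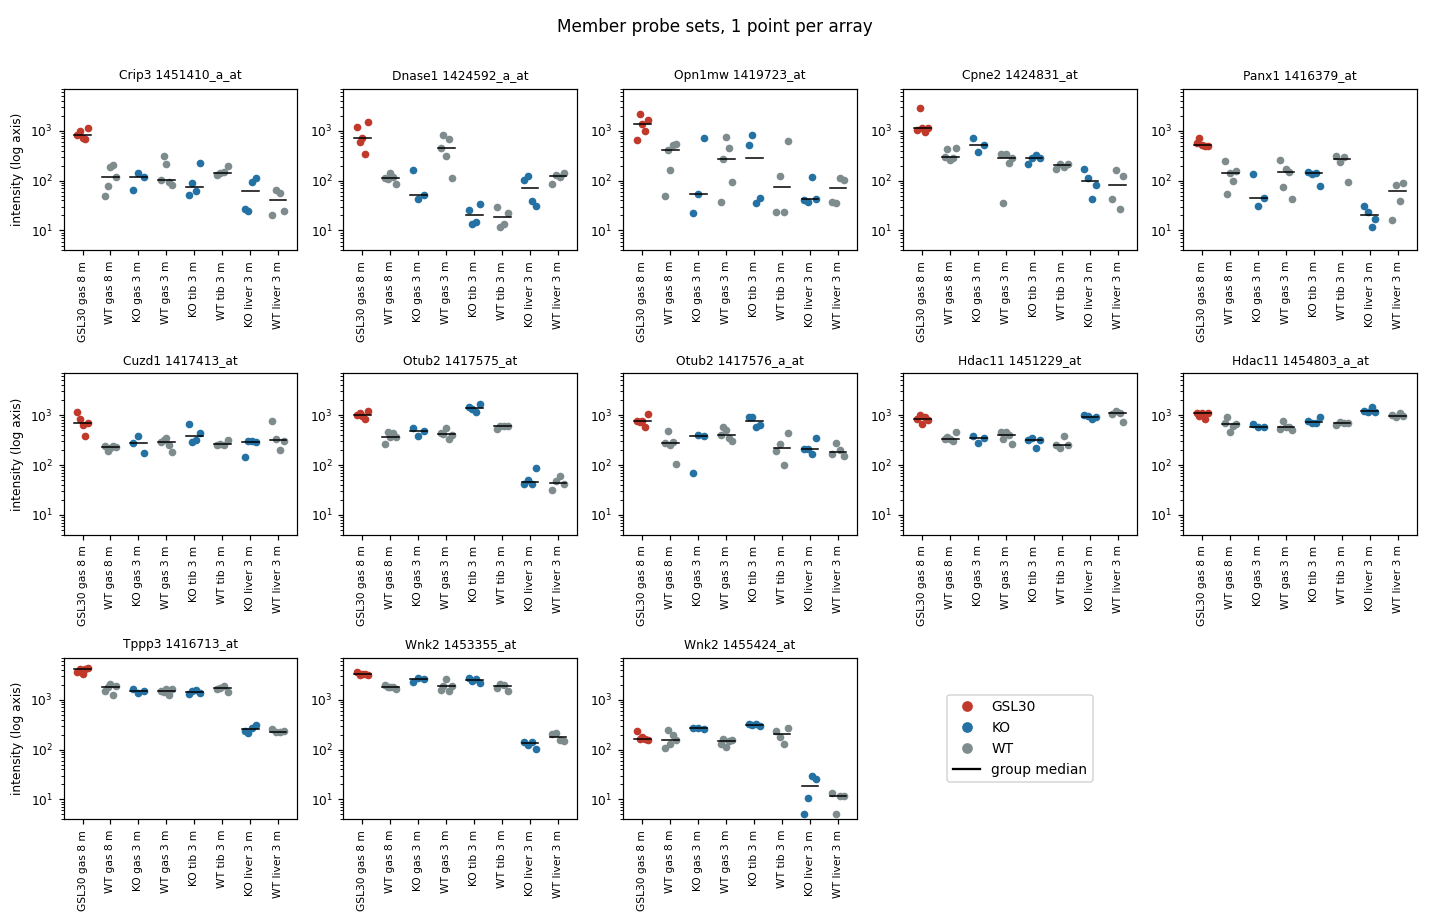
Intensity (log axis) of each member probe set in all 34 arrays, 1 point per array, coloured by genotype, with a line at each group median; gas is gastrocnemius, tib is tibialis and m is months. GSL30 arrays stand above the WT arrays beside them in 11 of 13 panels, and KO tibialis lies above WT tibialis without overlap in both Otub2 and both Wnk2 panels.

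**Figure D3:**
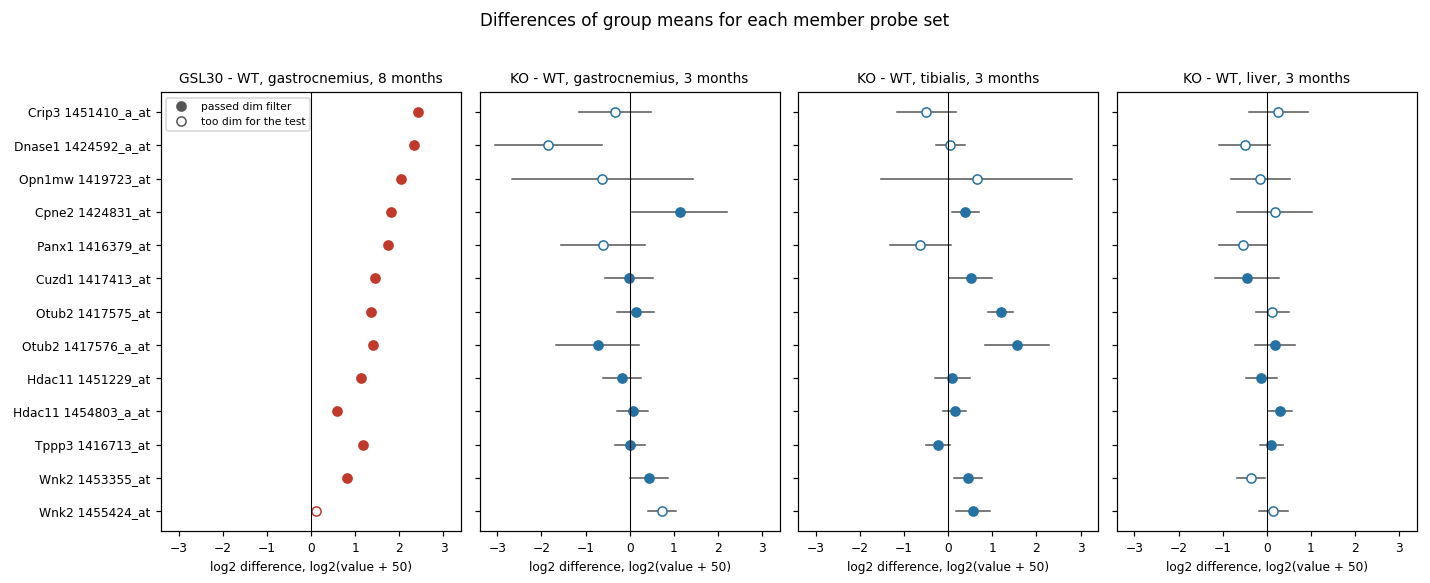
Log2 difference of group means for each member probe set in 4 comparisons, on the log2(value + 50) scale; bars are 95% intervals from limma, drawn only where the comparison did not choose the members, and open circles mark probe sets too dim for the test. The GSL30 differences all lie right of 0, and among the KO differences only those of Otub2 in tibialis exceed 1 with an interval above 0.5.

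Otub2, the deubiquitinase, read higher in GSL30 gastrocnemius and rose in KO tibialis. Its brighter probe set, 1417575_at, read 1005, 1097.5, 969.5, 850.1 and 1235.5 in GSL30 arrays and 266, 449.9, 364, 438 and 359 in WT arrays at 8 months, means of 1032 ± 144 and 375 ± 73.7 (SD, n = 5 each), a ratio of 2.75. It read 1485, 1361, 1166 and 1668 in KO tibialis and 533, 606, 621 and 599 in WT tibialis. Every KO tibialis array lay above every WT tibialis array, and the difference was 1.19 on the log2 scale (SE 0.13, adjusted p = 0.0022, limma with Benjamini-Hochberg adjustment). It was called in all 16 alternatives, with limma adjusted p of 1.88e-05 to 0.0115. Among them were fits without WT tibialis array 2 and without array 3, the arrays with pancreas transcripts. Each was left out alone and no fit left out both, so the part of pancreas RNA was not tested. At 3 months the KO gastrocnemius arrays read 559.9, 375 and 492, against 433, 414, 564, 333 and 396 in WT gastrocnemius. These groups overlapped, and the difference was 0.14 (95% interval -0.28 to 0.55, adjusted p = 0.769 in limma). The KO difference in gastrocnemius minus that in tibialis was -1.05 (SE 0.22, limma adjusted p = 0.226). For the other Otub2 probe set, 1417576_a_at, it was -2.28 (SE 0.57, limma adjusted p = 0.27). Neither was called, so the muscles were not shown to differ. That test called 0 of the 8 member probe sets that passed, where 0.0147% of all probe sets were called. An unadjusted p under 0.05 was reached by 2 of the 8, both of Otub2, and by 1364 of all 13576 probe sets.

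The other Otub2 probe set, 1417576_a_at, read 780.0, 729, 756, 587 and 1043 in GSL30 arrays and 276, 475, 256, 292 and 104 in WT arrays at 8 months. In KO tibialis it read 925, 900.1, 581 and 641, against 187, 259.8, 100.1 and 442 in WT tibialis. All KO tibialis arrays again lay above all WT tibialis arrays, and the difference of 1.55 (SE 0.32) missed the threshold at an adjusted p of 0.054 in limma. It was called in 5 of the alternative fits, among them the one without WT tibialis array 4, where it was 1.84. In KO gastrocnemius it read 69.9, 398 and 379.7, against 409, 581, 501, 357 and 302 in WT gastrocnemius at 3 months, with KO array 1 far below the rest. In liver 1417575_at was dim, at 41.5, 49.4, 42.5 and 87.2 in KO liver and 31.8, 47.3, 60.6 and 42.1 in WT liver, and both groups overlapped. Probe set 1417576_a_at read 210.0, 213.5, 165.5 and 346 in KO liver and 169, 271, 198 and 149.8 in WT liver, a difference of 0.19 (95% interval -0.27 to 0.64, limma adjusted p = 0.84). From high to low, the group means of 1417575_at ran KO tibialis, GSL30 gastrocnemius, WT tibialis, the gastrocnemius groups of KO and WT, and liver, and each group overlapped the next in that order except GSL30 gastrocnemius with WT tibialis and gastrocnemius with liver.

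Hdac11 was called higher in WT liver than in WT tibialis by both of its probe sets. Probe set 1451229_at read 843, 1009, 667, 908.5 and 816 in GSL30 arrays and 339, 359.6, 331, 310.4 and 450.1 in WT arrays at 8 months, a ratio of means of 2.37 with no overlap. Probe set 1454803_a_at read 1110.2, 953, 1121, 824 and 1106 in GSL30 arrays and 695, 931, 461, 618 and 679.5 in WT arrays, a smaller ratio of 1.51, and WT array 2 reached into the GSL30 range. In liver 1451229_at read 1027, 950.2, 842 and 923 in KO arrays and 1054.5, 1239, 1123 and 731 in WT arrays, so WT liver reached the level of GSL30 muscle. WT liver exceeded WT tibialis by 1.73 (SE 0.19, adjusted p = 1.57e-05) for 1451229_at and by 0.50 (SE 0.11, adjusted p = 0.00179) for 1454803_a_at in limma. In KO tissue no difference passed the test. The KO minus WT difference of 1451229_at was 0.10 in tibialis, -0.17 in gastrocnemius and -0.12 in liver, with limma adjusted p of 0.826, 0.719 and 0.867. Probe set 1454803_a_at read 1226, 1142, 1476 and 1174 in KO liver and 1002, 931, 1099 and 970.3 in WT liver, which did not overlap, and the difference of 0.31 (SE 0.12) had an adjusted p of 0.523 in limma. That was 1 of 2 member probe sets whose liver groups did not overlap, the other being the lower 1453355_at of Wnk2, where 2.76% of all tested probe sets stood higher without overlap and 2.41% lower.

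Wnk2 was bright in muscle and dim in liver. Probe set 1453355_at read 3509, 3067, 3244, 3258 and 3059.8 in GSL30 arrays and 1977, 1768, 1834, 1798 and 1661 in WT arrays at 8 months, means of 3227.5 ± 183 and 1808 ± 115 (SD, n = 5 each). The GSL30 arrays stood clear of WT, with a ratio of means of 1.79. That was the smallest ratio among the 11 member probe sets whose GSL30 and WT arrays did not overlap. In KO tibialis it read 2752, 2412, 2596 and 2141, against 1713, 2079, 1978 and 1472 in WT tibialis, without overlap, and the difference was 0.45 (SE 0.14, limma adjusted p = 0.173). In KO gastrocnemius it read 2246, 2760.3 and 2585, against 1563, 1896, 2616, 1485.5 and 1914 in WT gastrocnemius at 3 months, where WT array 3 lay within the KO range, and the difference was 0.43 (SE 0.19, limma adjusted p = 0.441). Neither muscle passed the test. In liver it read 141.5, 126, 142 and 104 in KO arrays and 202, 218, 153 and 149.7 in WT arrays, lower in every KO array with a log2 difference of -0.36, and too dim for the test. The WT liver minus WT tibialis difference was -3.01 (SE 0.15, limma adjusted p = 3.26e-08).

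The KO difference in liver minus the mean KO difference of both muscles was -0.80 for 1453355_at (SE 0.19, limma adjusted p = 0.0582). It was not called, and was called in 7 of 32 alternative fits. In liver alone this probe set was too dim for the test, and it passed the filter here by its level in muscle. The test of liver minus both muscles called 0 of 7 member probe sets, where 0.685% of all probe sets were called. An unadjusted p under 0.05 was reached by 2 of the 7, 1453355_at and Otub2 1417575_at, and by 1416 of all 13576 probe sets. Both were too dim for the test in liver alone. The dimmer Wnk2 probe set, 1455424_at, did not follow the GSL30 rise. It read 236, 159.9, 180.4, 162 and 157 in GSL30 arrays and 105.5, 242, 129.9, 192 and 153 in WT arrays at 8 months, fully overlapping. In KO tibialis it read 321, 314, 332 and 294, against 234, 178, 132 and 273 in WT tibialis, and in KO gastrocnemius 271, 266 and 258, against 129, 159.6, 112, 149.8 and 157 in WT gastrocnemius at 3 months. KO arrays lay above WT arrays in both muscles, by 0.55 in tibialis (SE 0.17, limma adjusted p = 0.175) and by 0.72 in gastrocnemius (SE 0.14), where it was too dim for the main test and had an adjusted p of 0.214 in limma without the filter. In liver its values lay between 5.2 and 29.8 in KO arrays and between 5.2 and 13.4 in WT arrays. The 2 probe sets of Wnk2 disagree in GSL30 muscle.

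Panx1, the ATP-releasing channel, had a median under the 40th percentile of the array in 6 of the 8 groups, all but GSL30 gastrocnemius and WT tibialis. It read 556, 709.9, 507, 486 and 486 in GSL30 arrays and 248, 53.1, 145, 98.7 and 155 in WT arrays at 8 months, means of 549 ± 94.3 and 139.8 ± 72.8 (SD, n = 5 each), a ratio of 3.93. The lowest GSL30 array lay above the highest WT array, and above all 24 arrays at 3 months, whose highest was 312, in WT tibialis. No such rise was seen in knockout muscle. In tibialis it read 146, 137, 143.5 and 76.3 in KO arrays and 312, 235, 304 and 92.9 in WT arrays, a difference of -0.64 (95% interval -1.32 to 0.05). Gastrocnemius arrays at 3 months read 137, 30.8 and 45.7 in KO arrays and 256, 73.4, 170.5, 151 and 41.9 in WT arrays, a difference of -0.61 (95% interval -1.56 to 0.34). The KO values lay low within or below the WT range in both muscles, and it was too dim for the test in each. Liver arrays of Panx1 read 31.2, 23.9, 11.8 and 17.0 in KO arrays and 16.2, 81.8, 39.5 and 91.1 in WT arrays, the lowest group means of any tissue.

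Cpne2, the copine, read 1057, 2826, 1147, 944 and 1142 in GSL30 arrays and 295, 436, 265, 290.1 and 441 in WT arrays at 8 months, a ratio of means of 4.12. GSL30 array 2 alone read more than the next highest by a wide margin, and without it the log2 difference was 1.53 in place of 1.80. The other 4 GSL30 arrays still lay above all WT arrays and above all 24 arrays at 3 months. Gastrocnemius arrays at 3 months read 718, 381 and 519 in KO arrays and 342, 35.8, 348, 224 and 282 in WT arrays. Every KO array lay above every WT array, with a difference of 1.13 (SE 0.48, limma adjusted p = 0.421), which did not pass the test. WT array 2, at 35.8, was far below the other WT arrays, and without it the difference was 0.73. Without the 4 arrays of high hepatocyte level it was 0.45. In tibialis it read 213, 284, 329.6 and 287 in KO arrays and 174.5, 213, 192 and 219 in WT arrays, a difference of 0.39 (SE 0.13, limma adjusted p = 0.216) with overlap of 1 KO array. In liver Cpne2 read 174, 113, 42.9 and 80.2 in KO arrays and 43.6, 165.5, 26.4 and 123 in WT arrays, too dim for the test.

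Crip3, the LIM-domain protein, showed the largest difference in GSL30 muscle on the log2(value + 50) scale, though not by the ratio of means, where Dnase1 was larger, and was too dim for the test in all 3 knockout tissues. It read 818.5, 986, 700.5, 671 and 1109.8 in GSL30 arrays and 49.5, 77.7, 184, 209 and 115.5 in WT arrays at 8 months, means of 857 ± 188 and 127 ± 68.2 (SD, n = 5 each), a ratio of 6.74. The lowest GSL30 array stood above the highest of the 24 arrays at 3 months, 318. In KO tibialis it read 51.9, 88.1, 61.8 and 221.5, against 129.5, 140.2, 149.6 and 196 in WT tibialis, a difference of -0.49 (95% interval -1.16 to 0.17). In KO gastrocnemius it read 65, 144 and 119, against 104, 318, 218, 95.8 and 81.4 in WT gastrocnemius at 3 months, a difference of -0.33 (95% interval -1.15 to 0.49). KO and WT arrays overlapped in both muscles. Liver arrays read 27.4, 24.5, 95.6 and 112 in KO and 20.8, 65.7, 57.7 and 24.3 in WT. In every group but GSL30 its median lay under the 40th percentile of the array.

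Tppp3, of the tubulin polymerization-promoting family, was bright in all muscle groups. It read 3636, 4039.6, 3302, 4173 and 4251 in GSL30 arrays and 1475, 1786, 2075, 1259 and 1883 in WT arrays at 8 months, means of 3880.2 ± 401 and 1695 ± 326 (SD, n = 5 each), a ratio of 2.29 with a wide gap between groups. In tibialis it read 1279.7, 1487, 1555.5 and 1389.5 in KO arrays and 1671, 1746, 1905 and 1421 in WT arrays, a difference of -0.23 (95% interval -0.50 to 0.04, limma adjusted p = 0.411). Gastrocnemius arrays at 3 months read 1627, 1363 and 1472 in KO arrays and 1468, 1402, 1673, 1213 and 1672 in WT arrays, a difference of 0.01 (95% interval -0.32 to 0.34, limma adjusted p = 0.986). In liver it read 238, 217, 269 and 304 in KO arrays and 257, 224, 226.5 and 233 in WT arrays, a difference of 0.10 (95% interval -0.16 to 0.36, limma adjusted p = 0.849). The WT liver minus WT tibialis difference was -2.60 (SE 0.12, limma adjusted p = 1.61e-08).

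Dnase1, the secreted nuclease, read 1176, 606, 724, 337 and 1527.5 in GSL30 arrays and 115, 106, 145, 119.6 and 87.5 in WT arrays at 8 months, means of 874 ± 475 and 114 ± 20.9 (SD, n = 5 each), a ratio of 7.64. All GSL30 arrays lay above all WT arrays, but the GSL30 arrays themselves were spread widely, with array 4 lowest and array 5 highest. At 3 months Dnase1 read 160.1, 43.4 and 52.2 in KO gastrocnemius and 441, 838, 318, 679.8 and 111 in WT gastrocnemius, so WT arrays at 3 months reached the GSL30 range. The KO minus WT difference was -1.84 (95% interval -3.05 to -0.63), in the direction opposite to GSL30, and the probe set was too dim for the main test, with an adjusted p of 0.458 in limma without the filter. The hepatocyte mean of the same arrays was 13.37, 12.01 and 11.38 in KO and 13.95, 15.48, 12.69, 14.74 and 11.49 in WT, and the arrays with more hepatocyte transcript had more Dnase1 within each of these groups, apart from KO arrays 2 and 3. Kap, a transcript of kidney tubules, read 1351, 902 and 1219.8 in KO and 4951, 10165, 1377, 11893 and 1299 in WT, with its 3 highest values in the WT arrays of highest Dnase1. In GSL30 arrays Dnase1 was high while the hepatocyte mean was lower than in any WT array at 8 months and Kap read 700.2, 605, 709, 419.7 and 685.5, against 693, 652, 561, 488 and 538 in WT. A list of kidney genes was also averaged on the scale of the hepatocyte mean. Its mean was 8.20, 7.65, 7.62, 7.69 and 7.89 in GSL30 arrays 1 to 5, and 7.49 to 7.74 in WT arrays at 8 months. GSL30 arrays 1 and 5, highest in that mean, were also highest in Dnase1. The other GSL30 arrays lay within the WT range of that mean. The part of liver or kidney RNA in the Dnase1 values was not tested at 3 or at 8 months.

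In tibialis Dnase1 was near the lowest levels of the array, at 25.4, 13.7, 15.0 and 34.3 in KO arrays and 29.9, 12, 13.8 and 22.7 in WT arrays. In liver it read 105, 124, 39.3 and 31.3 in KO arrays and 86.1, 129, 118 and 143 in WT arrays, where the groups overlapped and the probe set was too dim for the test. At 3 months every WT gastrocnemius array lay above every WT tibialis array, as for 9.82% of all tested probe sets, in the arrays with the hepatocyte and Kap values given above.

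**Figure D4:**
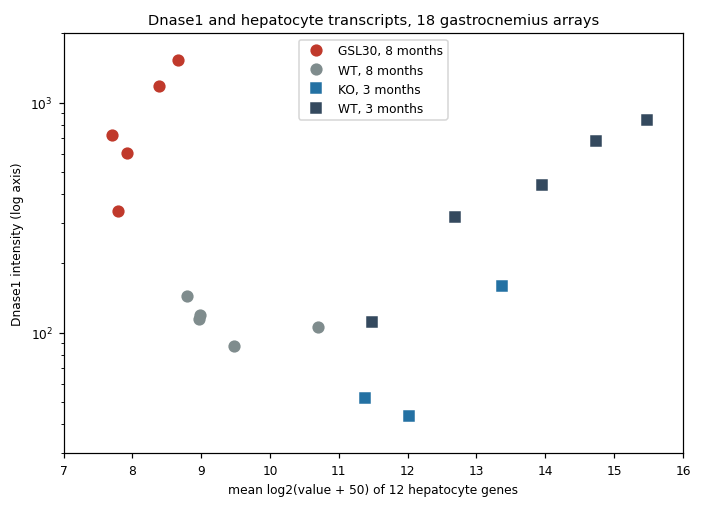
Dnase1 intensity (log axis) against the mean log2(value + 50) of 12 hepatocyte genes in the 18 gastrocnemius arrays, 1 point per array, circles at 8 months and squares at 3 months. The GSL30 points lie high at hepatocyte means of 7.71 to 8.67, whereas at 3 months the highest WT points lie at the highest hepatocyte means.

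Cuzd1, known from pancreatic zymogen granules, read 1142, 842, 642, 387 and 682 in GSL30 arrays and 244.5, 189, 221, 246 and 231 in WT arrays at 8 months, a ratio of means of 3.27. The groups did not overlap, and GSL30 array 4 was lowest. In tibialis it read 669, 288, 317 and 439.5 in KO arrays and 250.9, 269, 255 and 315 in WT arrays, which overlapped, with KO array 1 above the rest and a difference of 0.51 (SE 0.22, limma adjusted p = 0.32). WT tibialis arrays 2 and 3, which held pancreas transcripts, lay within the range of the other WT tibialis arrays. Gastrocnemius arrays at 3 months read 273, 382 and 178 in KO arrays and 288, 325, 341, 248 and 179 in WT arrays, a difference of -0.02 (95% interval -0.57 to 0.53, limma adjusted p = 0.982). In liver it read 143, 303, 298 and 284 in KO arrays and 752, 339, 203.5 and 305 in WT arrays, a difference of -0.46 (95% interval -1.18 to 0.27, limma adjusted p = 0.751). The highest liver value, in WT array 1, came with 17582 for Cpa1, a digestive enzyme of exocrine pancreas, against 8.8 to 2153 in the other WT liver arrays. In GSL30 arrays Cpa1 read 59.9, 28.4, 15.3, 22.0 and 44.7, against 17.6, 17.7, 16.1, 16.6 and 19.0 in WT arrays at 8 months, all dim.

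Opn1mw, the cone opsin, read 667, 2184, 1389, 969.7 and 1638 in GSL30 arrays and 49.1, 412, 166, 520.0 and 533 in WT arrays at 8 months, means of 1369 ± 589 and 336 ± 218 (SD, n = 5 each), a ratio of 4.08. The lowest GSL30 array stood only a little above the highest WT array, and both groups were spread widely. Arrays of 1 group were also far apart at 3 months. KO tibialis read 512, 805, 35.9 and 44.2, against 23.9, 124, 23.8 and 635 in WT tibialis, and gastrocnemius at that age read 22.1, 53.4 and 720.4 in KO arrays and 36.5, 268, 745, 445 and 95.6 in WT arrays. High and low arrays occurred in both genotypes, and the KO minus WT differences of 0.64 in tibialis and -0.62 in gastrocnemius had 95% intervals of -1.52 to 2.81 and -2.68 to 1.44. Both were too dim on average for the test. Liver arrays were low throughout, at 40.1, 38.0, 116.8 and 43.6 in KO and 36.6, 35.0, 114 and 103 in WT. Other cone genes were dim and overlapped: Gnat2, the cone transducin, read 359, 295, 344, 188 and 407 in GSL30 arrays and 152, 407, 207.5, 219.5 and 234 in WT arrays at 8 months, and Opn1sw, the short-wavelength opsin, read 293.5, 255, 177, 199 and 377 in GSL30 arrays and 223, 195, 148, 138 and 145 in WT arrays. Pde6c, the cone phosphodiesterase, stayed between 18 and 36.7 in GSL30 arrays and between 15.0 and 30.7 in WT arrays.

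The WT level in muscle was low for some members and high for others. In WT gastrocnemius at 8 months 5 of the 13 had a median under the 40th percentile of the array, a share close to the 40% of all probe sets that lie there by definition, and 4 of these were under it in all 5 arrays. In GSL30 arrays 1 of 13 had such a median, which restates the choice of members. The median percentile in GSL30 arrays was 65.7 for Dnase1, 67.1 for Crip3, 56.5 for Panx1 and 62.8 for Cuzd1, against 23.5, 26.3, 29.4 and 38.0 in WT arrays. It was 92.7 for Tppp3 and 90.8 for Wnk2 1453355_at in GSL30 arrays, against 83.6 for both in WT arrays. At 3 months 4 of 13 had a median under the 40th percentile in WT gastrocnemius, 5 in WT tibialis and 9 in WT liver. For KO arrays the counts were 4 in gastrocnemius, 4 in tibialis and 8 in liver. The log2(value + 50) scale shrinks ratios of dim values, so the 6.74-fold ratio of means for Crip3 stood beside a log2 difference of 2.42, which was 2.90 with 1 added in place of 50.

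**Figure D5:**
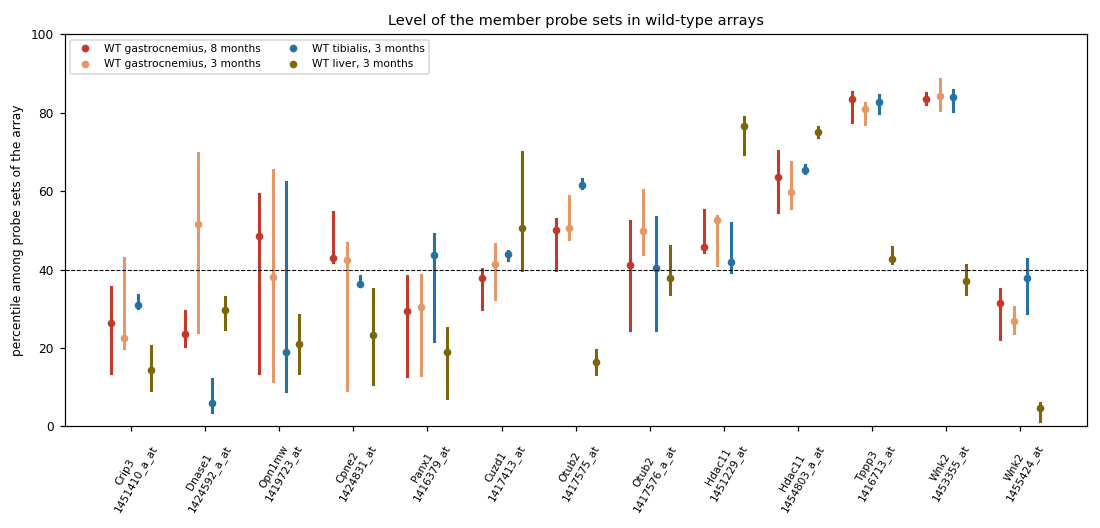
Percentile of each member probe set among all probe sets of its array in the 4 WT groups; points are group medians, bars run from the lowest to the highest array, and the dashed line marks the 40th percentile. Wnk2 1453355_at and Tppp3 lie high in muscle and much lower in liver, and Crip3 lies low in all 4 groups.

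Set against the 24 arrays at 3 months, 5 of the 13 probe sets (Crip3, Cpne2, Panx1, Tppp3 and Wnk2 1453355_at) had no array that reached the lowest GSL30 array, as for 2.68% of all tested probe sets, and the GSL30 values that chose the members enter this count. Dnase1, Opn1mw and Cuzd1 each had 3 arrays that did, and Otub2 had 4 for 1417575_at and 3 for 1417576_a_at. The 4 were the KO tibialis arrays, and the 3 were KO tibialis arrays as well. Hdac11 had 8 for 1451229_at and 9 for 1454803_a_at. Age and array set differ from GSL30 in all of these arrays.

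WT liver minus WT tibialis was tested for 5 member probe sets, and 4 were called, where 69.4% of all probe sets were called, 28.2% higher and 41.1% lower, so the share was near that of all probe sets. Both Hdac11 probe sets were higher in WT liver, and Tppp3 and Wnk2 1453355_at were lower. Cuzd1, which also passed, differed by 0.35 (limma adjusted p = 0.308) and was not called. The other 8 probe sets were too dim on average for that test, and their differences are given as a description. Opn1mw differed by -0.45 and Otub2 1417576_a_at by -0.16, with overlap of the groups. Dnase1 was higher in WT liver, by 1.28, and Otub2 1417575_at, Wnk2 1455424_at, Panx1, Crip3 and Cpne2 were lower, at -2.75, -2.04, -1.39, -1.17 and -0.96. For Dnase1 and the 5 that were lower, at least 1 tissue was near the lowest levels of the array, so their size depends on the added 50. WT gastrocnemius minus WT tibialis at 3 months was tested for 7, and 1 was called, Otub2 1417575_at at -0.44 (SE 0.14, limma adjusted p = 0.0466), where 27.0% of all probe sets were called and 14.8% were called lower. The call was kept in 5 of 18 alternative fits and in 1 of the 9 that left out an array. With the hepatocyte mean as a covariate that difference was -0.12 (limma adjusted p = 0.896). Tissue and array set cannot be told apart in either comparison.

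Different GSL30 arrays were highest for different members. The median rise over the brightest probe sets of the 10 genes, on the log2 scale, was 1.42, 1.85, 1.48, 1.27 and 1.60 in arrays 1 to 5. Array 4 was lowest for 6 of the 10 genes and highest for none, while array 5 was highest for 4 and array 2 for 3. Without array 2 the difference was 1.86 for Opn1mw, against 2.05 with it, and 2.42 for Dnase1, against 2.33 with it. Over the 34 arrays, the genes whose pattern was most like Otub2 1417575_at were Igdcc4 (Pearson r = 0.951) and Ache (r = 0.949), the acetylcholinesterase of the neuromuscular synapse, as a description over arrays that share tissues and genotypes. Ache differed by 1.26 in KO tibialis against WT tibialis (limma adjusted p = 0.00928), and Igdcc4 by 0.25 (limma adjusted p = 0.317). The nearest to Wnk2 1453355_at were Pdlim7 (r = 0.985) and Bin1 (r = 0.984), to Tppp3 Aimp1 (r = 0.977) and Ccng1 (r = 0.972), and to Crip3 Ubxn6 (r = 0.904) and Kcnn1 (r = 0.855). For Cpne2 they were Myh14 (r = 0.873) and Ift122 (r = 0.858), for Hdac11 Grcc10 (r = 0.857) and Mab21l2 (r = 0.838), and for Panx1 Rbm42 (r = 0.851) and Lrba (r = 0.837). The closest were weaker for Dnase1 (Napa, r = 0.801, and Tirap, r = 0.781), Cuzd1 (Nras, r = 0.73, and Zp2, r = 0.654) and Opn1mw (Kcnn1, r = 0.719, and Cdc42, r = 0.716).

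Relatives of the members were taken from 10 lists of 114 genes, 94 of which had a probe set. In the KO comparisons 58 passed the filter in tibialis, 58 in gastrocnemius and 55 in liver, and 0 were called by limma in each. There were 10, 9 and 3 at an unadjusted p under 0.05, against 15.0%, 11.4% and 8.33% of all probe sets. Of 59 that passed in GSL30 gastrocnemius, 2 were called higher and 2 lower, where 2.11% of all probe sets were called higher and 2.20% lower. The higher ones were the tubulins Tubb4b at 0.67 (SE 0.11, adjusted p = 0.0104) and Tuba8 at 0.60 (SE 0.13, adjusted p = 0.0229) in limma, both relatives by pathway of Tppp3. The lower ones were the LIM protein Csrp2 at -0.51 (SE 0.12, adjusted p = 0.0385) and Sgk1, a kinase of the WNK pathway, at -1.07 (SE 0.27, adjusted p = 0.0444) in limma. Csrp3, the LIM protein of striated muscle, differed by -0.95 in GSL30 gastrocnemius and 1.23 in KO tibialis, neither called (limma adjusted p = 0.074 and 0.0541). The copine Cpne6 differed by 1.16 in GSL30 gastrocnemius (limma adjusted p = 0.0706), Cpne1 by -0.25 and Cpne3 by -0.29. Among deubiquitinases Otub1 differed by 0.14 in KO tibialis and 0.37 in GSL30 gastrocnemius, and Usp2 by -0.56 and 0.45, none called. Of the other histone deacetylases and sirtuins 8 passed in GSL30 gastrocnemius and 0 were called by limma. An unadjusted p under 0.05 was reached by 3 of the 8 and by 2908 of all 13576 probe sets.

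Markers of other cell and fibre types moved with the GSL30 contrast in which the members were chosen. Of 10 slow fibre genes 7 were called lower in GSL30 gastrocnemius, where 2.20% of all probe sets were, with a summed level of 68394 to 82456 in GSL30 arrays and 96361 to 118254 in WT arrays. Of 10 endothelial genes 5 were called lower, at sums of 12049.9 to 14677 in GSL30 arrays and 18573.5 to 21621 in WT arrays. Of 7 smooth muscle genes 4 were called lower and 1, Des, higher, and of 11 fibroblast and tendon genes 4 were called lower. Hepatocyte genes summed to 2701 to 6544.5 in GSL30 arrays and 7204.5 to 33598 in WT arrays, with 3 of 12 called lower. Of 15 macrophage genes 13 had a probe set and 0 were called by limma, with 1 at an unadjusted p under 0.05 (2908 of all 13576 probe sets). Their sums were 19098 to 46496.5 in GSL30 arrays and 25461 to 30304 in WT arrays. In whole muscle, fewer cells of a type and less RNA per cell cannot be told apart, and the part of these lists in the member differences was not tested. In KO tibialis, where Otub2 rose, limma called 1 of 10 slow fibre genes that passed, Myl3, the slow myosin light chain, at 2.29 (SE 0.22, adjusted p = 0.00143), while 5 of the 10 were positive and 5 negative, with a median of 0.04. It called 1 of 10 fibroblast and tendon genes, Fmod, a collagen-binding proteoglycan, lower at -0.91 (SE 0.16, adjusted p = 0.0293), and 8 of the 10 were negative, with a median of -0.34. Of 10 endothelial genes 0 were called by limma, but 9 had an unadjusted p under 0.05 (15.0% of all probe sets) and 9 were positive, with a median of 0.43. Actc1 at 1.13 (SE 0.22, adjusted p = 0.044) was the 1 call among 7 regeneration genes that passed, and Chrna1, the muscle acetylcholine receptor subunit, at 0.74 (SE 0.15, adjusted p = 0.0451), the 1 call among 6 denervation genes. In KO gastrocnemius 0 of 12 hepatocyte genes were called by limma, and 1 had an unadjusted p under 0.05 (11.4% of all probe sets). All 12 differences were negative and their median was -1.37, against 0.05 over all probe sets tested.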

How the data were processed

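RNA from muscle and liver was hybridised to Affymetrix arrays, 34 in all, with about 5 µg of total RNA for muscle and 10 µg for liver per the labels. The deposited values are linear intensities per probe set that the authors had scaled, as the values show, to a 2% trimmed mean near 1000, and which software combined the probes was not given in the sources used here. Control probe sets were left out, values were taken as log2(value + 50), and probe sets whose mean over the arrays of a comparison lay under the 40th percentile were dropped, which left 13576. Each comparison was fitted across all of them by lmFit and eBayes of limma 3.58.1, under R 4.3.3, with Benjamini-Hochberg adjustment and a threshold of 0.05. The data.table package (version 1.17.8) handled tables, and figures used Python 3.11.15 with numpy 2.4.6, pandas 2.3.3 and matplotlib 3.10.9. Of the 22690 probe sets 20393 had 1 gene symbol, 691 several and 1606 none, and no gene was named from a probe set with several. The labels do not say that arrays come from separate animals, so p-values measure the spread between these samples, which may be technical, and the number of arrays limits the precision. Replicate arrays correlated at 0.901 to 0.980 within groups, and no pair shared more than 0.137% of its values.

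The members and lists were chosen with earlier results of these data known, and the kidney and exocrine pancreas lists were added after the data were seen. All member probe sets are named. Of the other lists, called genes with the smallest p and relatives of a member are named, with the 2 genes of highest Pearson r to each member and the 3 genes just below the lowest member in GSL30. Kap, Cpa1, Sln and Cd68 were named after their values were seen. The alternatives were quantile normalization, a common median, a pseudocount of 1 or 200, no filter or one at the 60th percentile, trended and robust eBayes, all 34 arrays in 1 fit, each array left out in turn, and, for gastrocnemius, hepatocyte transcripts as a covariate or the arrays rich in them left out. Naming GSL30 array 2 beside its results was chosen after seeing the data. The fitting steps were tested on simulated data.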

Additional observations from a re-analysis of the deposited data

Results flagged for a closer look

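In groups of 4 or 5 arrays, 5 of the 91 member probe set groups held 1 array far from the others, and chance gives about 1 in 20. Cpne2 read 2825.8 in GSL30 gastrocnemius array 2, against 943.6 to 1146.6 in the other GSL30 arrays. Panx1 read 76.3 in KO tibialis array 4, against 137.1 to 146.2 in the other KO tibialis arrays. Opn1mw read 116.8 in KO liver array 3, against 38.0 to 43.6 in the other KO liver arrays, and 635.1 in WT tibialis array 4, against 23.8 to 123.9 in the other WT tibialis arrays. Cuzd1 read 143.1 in KO liver array 1, against 284.1 to 303.4 in the other KO liver arrays.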

How the results depend on the processing

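Otub2 1417575_at kept its call in KO tibialis in all 16 alternatives, with limma adjusted p from 1.88e-05 to 0.0115. The number of member probe sets called in KO tibialis was 2 with a common median, with 200 added, with trended and robust eBayes and with all 34 arrays in 1 fit, and 1 to 2 with an array left out, 2 without WT tibialis array 4. It stayed 0 in KO gastrocnemius, KO liver and the KO effect of gastrocnemius minus tibialis. For the KO effect of liver minus both muscles it was 1 with quantile normalization, with 1 added, with the filter at the 60th percentile, with trended and robust eBayes and with all 34 arrays, and 0 to 1 with an array left out, 1 without KO tibialis array 4 or WT gastrocnemius array 3. For WT liver minus WT tibialis it was 4 to 5 with an array left out. It was 10 without the filter, a fit for which no share of all probe sets is given. For WT gastrocnemius minus WT tibialis it was 0 with 200 added, with the filter at the 60th percentile, with trended and robust eBayes, without the arrays of high hepatocyte level and with the hepatocyte covariate, 2 with all 34 arrays, and 0 to 2 with an array left out, 0 in 6 of the 9 such fits and 2 without WT gastrocnemius array 2. The cause of these changes was not tested. No direction of a called difference reversed. The GSL30 differences of dim members moved most with the added constant: Crip3 was 2.90 and Panx1 2.12 with 1 added, and with 200 added Crip3 was 1.70, Panx1 1.16, Otub2 1.10 and 1.06, and Hdac11 0.91. No paired analysis was possible because the labels carry no replicate numbers that pair arrays across groups. Signal over background limits Crip3, Panx1, Dnase1 and Opn1mw outside GSL30 muscle, where probe sets too dim on average had no test.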
